A study of Mus musculus with 12 samples.

Results

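This report describes 10 genes of matrix remodelling in the mouse liver, out of 52636 genes in the count files: the matrix metalloproteinases Mmp2, Mmp13 and Mmp14, the ADAMTS proteases Adamts1, Adamts2 and Adamts5, the inhibitors Timp1, Timp2 and Timp3, and the matrix-crosslinking enzyme Loxl1. The genes were listed by name and matched by gene identifier, with no threshold on an expression value. The list was chosen with earlier results of these data known. Liver RNA of 12 male C57Bl/6J mice was sequenced at 16 weeks of age, with 1 library per mouse. The 6 VDD-F1 mice were born to dams on a vitamin D deficient diet with added calcium gluconate, and the 6 VDS-F1 mice were born to dams on a matched sufficient diet. Both diets ran from before mating to the end of pregnancy. All dams had the sufficient diet after delivery and all offspring had it after weaning, so both groups ate the same diet from weaning to sampling. Litters are not given in the sources used here, so p-values measure the spread between these mice, some of which may be littermates.

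The liver matrix is a thin network of collagens, elastic fibres and proteoglycans, made largely by stellate cells and portal fibroblasts. Metalloproteinases cut its fibres, ADAMTS enzymes trim procollagens and cut proteoglycans, and TIMP proteins bind and block metalloproteinases, with TIMP3 blocking ADAMTS enzymes as well. Lysyl oxidases do the opposite work and crosslink collagen and elastin, and in a scarring liver all these activities usually rise side by side. TIMP2 has a further role, since together with the membrane protease MMP14 it presents the inactive form of MMP2 for cleavage.

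Each library held between 14275793 and 20815066 counts on the strand used. Some library features touch the results. VDS6 had the largest share of fragments outside genes, 11.1%, beside a median of 3.42% over the libraries. It also had the lowest share of stranded counts on the strand used, 92.7%. VDD2 stood apart from the other mice and had the highest level of all 8 members that could be tested. The study's supplement records a liver weight for 7 of the mice (VDD4, VDD5, VDD6 and all VDS-F1 mice but VDS1 and VDS2) and none for the other 5, and these sets are shown separately below. Hepatocyte markers were abundant in every library, where their summed level, in counts per 1000000 counts of the library (CPM), was 79283 to 108335, and pancreatic acinar markers reached at most 0.624 CPM.

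In the comparison of VDD-F1 with VDS-F1, 7 of the 8 members tested had a higher fitted level in VDD-F1, led by Loxl1, Adamts2, Mmp2 and Adamts5. None of the 8 passed an adjusted p of 0.05, against 0.0402% of all 12453 genes tested that were called with edgeR at that p and a log2-fold change past 1. At an unadjusted p under 0.05, 6 of the 8 were higher and none was lower, against 9.55% of all genes that were higher and 15.8% that passed in either direction. The median log2-fold change of the 8 was 1.17, and that of all genes tested was 0.0041. With DESeq2, 3 of the 8 were called, Adamts2, Adamts5 and Loxl1, against 1.75% of all genes called higher. Timp1 and Mmp13 had a mean count under 12 and were not among the 8. The 8 could be tested because of their levels over all mice, so these counts do not speak for all 10 genes. These counts are also no independent evidence, since the list was chosen with earlier results of these data known. In bulk RNA, fewer cells of a type and less RNA per cell cannot be told apart.

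**Figure D1:**
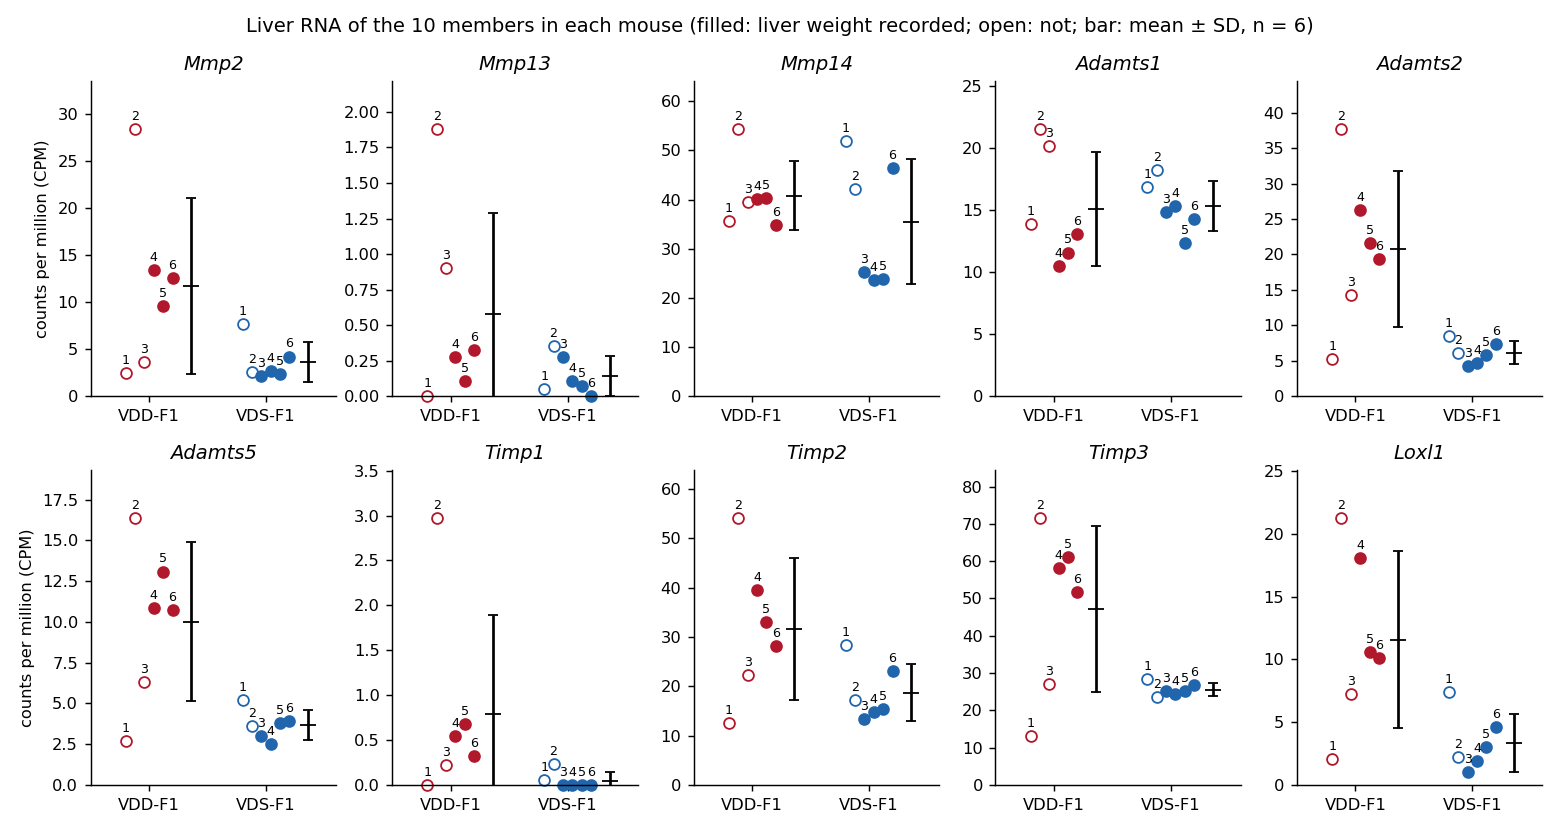
Level of each of the 10 genes (CPM, linear axis) in each mouse, numbered by replicate, for VDD-F1 (red) and VDS-F1 (blue). Filled points are mice with a recorded liver weight, and the black bar is the mean ± SD of the 6 mice, ended at 0 where it would go below. VDD2 is the highest mouse in every panel, VDD1 lies among the VDS-F1 mice for Mmp2, Adamts5 and Loxl1, and no panel separates all VDD-F1 from all VDS-F1 mice.

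Adamts2 encodes the procollagen N-proteinase, which removes the amino-terminal propeptide of fibrillar collagens so that fibrils can form. It lies on chromosome 11 (GRCm38, 50602084 to 50807573, plus strand), and its level ran from 5.24 CPM to 37.7 CPM in VDD-F1, with a median of 20.5 CPM. In VDS-F1 it ran from 4.19 CPM to 8.54 CPM, with a median of 5.95 CPM. 5 of the VDD-F1 mice lay above the whole VDS-F1 range, and VDD1 lay inside it. The log2-fold change was 1.76 (SE 0.35, adjusted p = 0.0640, edgeR), the smallest adjusted p of the members. DESeq2 gave an adjusted p of 1.06e-04 for the same gene.

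Adamts5 encodes the main aggrecanase, which cuts aggrecan and versican. The gene lies on chromosome 16 (85856173 to 85901828, minus strand), next to Adamts1. Its level was 2.71 CPM to 16.4 CPM in VDD-F1 (median 10.8 CPM) and 2.50 CPM to 5.18 CPM in VDS-F1 (median 3.71 CPM). Again all VDD-F1 mice but VDD1 were above every VDS-F1 mouse. The log2-fold change was 1.45 (SE 0.33, adjusted p = 0.0855, edgeR), and DESeq2 gave an adjusted p of 0.00237.

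Adamts1 encodes another protease of aggrecan and versican, and it did not follow its neighbour. It lies at 85793827 to 85803113 on the minus strand of the same chromosome. Its level was 10.5 CPM to 21.5 CPM in VDD-F1 (median 13.5 CPM) and 12.4 CPM to 18.2 CPM in VDS-F1 (median 15.1 CPM). The groups overlapped throughout, with the highest and the lowest mouse both in VDD-F1. The log2-fold change was -0.02 (SE 0.17, 95% interval -0.39 to 0.35, adjusted p = 0.976). The interval leaves out a change of 2-fold in either direction and still holds smaller ones.

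Proximal promoters are shown for members from both the protease and the inhibitor families, because their fold changes were unequal. RefSeq windows were matched for 7 of the 10 members (build GRCm38.p6), and the 250 bases before the annotated start are given 5′ to 3′ on the strand of the gene. Capitals mark motifs searched on both strands, and those printed do not overlap each other. The GC box was spelled GGGCGG and the TATA box was spelled TATAAA. For the AP-1 site, which binds Fos and Jun proteins, the letters were TGANTCA.

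Adamts2, chr11:50601835-50602084, plus strand: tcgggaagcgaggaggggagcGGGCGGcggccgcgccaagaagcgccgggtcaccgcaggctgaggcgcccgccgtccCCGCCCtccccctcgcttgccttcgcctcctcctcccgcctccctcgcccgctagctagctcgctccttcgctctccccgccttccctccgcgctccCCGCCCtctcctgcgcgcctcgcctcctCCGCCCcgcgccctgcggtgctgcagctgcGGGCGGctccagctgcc

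Adamts1, chr16:85803114-85803363, minus strand: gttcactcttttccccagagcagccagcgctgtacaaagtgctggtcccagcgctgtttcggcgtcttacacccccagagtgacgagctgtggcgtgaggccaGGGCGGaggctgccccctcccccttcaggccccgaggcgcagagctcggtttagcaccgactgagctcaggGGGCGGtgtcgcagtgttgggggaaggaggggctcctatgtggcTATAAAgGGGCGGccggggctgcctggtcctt

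Mmp13, chr9:7272264-7272513, plus strand: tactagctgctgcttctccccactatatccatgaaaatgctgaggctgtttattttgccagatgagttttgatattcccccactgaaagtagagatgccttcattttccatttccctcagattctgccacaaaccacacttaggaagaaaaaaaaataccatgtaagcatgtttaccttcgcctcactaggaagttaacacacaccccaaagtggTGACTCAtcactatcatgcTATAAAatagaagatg

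Timp1, chrX:20869916-20870165, plus strand: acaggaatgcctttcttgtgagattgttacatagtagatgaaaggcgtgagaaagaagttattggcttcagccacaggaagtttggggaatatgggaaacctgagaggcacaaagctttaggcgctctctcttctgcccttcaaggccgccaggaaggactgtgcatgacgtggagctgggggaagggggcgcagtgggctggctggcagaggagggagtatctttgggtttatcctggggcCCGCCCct

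The Adamts2 window held 5 GC boxes and no TATA box, with 78% of its bases G or C. The Adamts1 window held 3 GC boxes and a TATA box that ended 27 bases before the start. The Mmp13 window was the only one of the 7 with an AP-1 site, 29 to 35 bases before the start, and it also had a TATA box and no GC box. Timp1 had 1 GC box, as had Timp2 and Timp3, and Mmp14 had 2. Over all 32851 mouse windows of this length, 32.7% held a GC box, 12.4% a TATA box and 6.75% an AP-1 site. The letters AGGTCA, or their variant with T at the third place, make up one arm of many vitamin D receptor sites. None of the 7 windows held either version, and 24.2% of all windows did. A match is a run of letters and not a bound site, and a missing match says only that these letters are not in this window.

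Mmp2 encodes gelatinase A, which degrades denatured collagen and basement membrane collagen. The gene lies on chromosome 8 (92827291 to 92853420, plus strand). Its level was 2.46 CPM to 28.4 CPM in VDD-F1 (median 11.1 CPM) and 2.13 CPM to 7.65 CPM in VDS-F1 (median 2.62 CPM). VDD2, VDD4, VDD5 and VDD6 were above all VDS-F1 mice, while VDD1 and VDD3 were below VDS1. It differed by a log2-fold change of 1.69 (SE 0.51, adjusted p = 0.133, edgeR), and DESeq2 gave an adjusted p of 0.0606. Without VDD2 the log2-fold change was 1.20 (adjusted p = 0.283).

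Mmp14 encodes the membrane-type protease that sits at the cell surface. The gene lies on chromosome 14 (54431612 to 54445364, plus strand). Its level was 34.7 CPM to 54.3 CPM in VDD-F1 (median 39.8 CPM) and 23.6 CPM to 51.8 CPM in VDS-F1 (median 33.7 CPM). In VDS-F1 the mice fell apart into VDS1, VDS2 and VDS6 at 42.1 CPM and above and VDS3, VDS4 and VDS5 at 25.3 CPM and below, and the VDD-F1 mice other than VDD2 lay between. It differed by a log2-fold change of 0.20 (SE 0.20, 95% interval -0.24 to 0.64, adjusted p = 0.678).

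Mmp13, the main interstitial collagenase of rodents, was close to the detection limit. It lies on chromosome 9 (7272514 to 7283331, plus strand), with a count of 36 in VDD2, 12 in VDD3 and at most 7 in each of the other 10 libraries. VDD1 and VDS6 had a count of 0, which allows up to 3 counts in such a library. In an edgeR fit of genes with a total count of at least 12 the log2-fold change was 1.98 (adjusted p = 0.332). Without VDD2, 25 counts remained over 5 VDD-F1 mice, beside 14 over 6 VDS-F1 mice.

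Timp3 encodes an inhibitor that stays bound to the matrix and blocks ADAMTS enzymes as well as metalloproteinases. It lies on chromosome 10 (86300372 to 86349506, plus strand). Its level was 13.1 CPM to 71.6 CPM in VDD-F1 (median 54.9 CPM), and in VDS-F1 it kept to 23.5 CPM to 28.3 CPM (median 25.1 CPM). VDD1 was below every VDS-F1 mouse, VDD3 was inside their range, and the other 4 were above it. The log2-fold change was 0.89 (SE 0.30, adjusted p = 0.172, edgeR). Timp3 shares 1733 exon bases with Syn3 on the other strand, and Syn3 had 11 to 40 counts per library. The log2-fold change with the count that ignores the strand was the same to 2 decimals, 0.89.

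Timp2 encodes the inhibitor that also takes part in MMP2 activation. Its locus is on chromosome 11 (118301069 to 118355740, minus strand). Its level was 12.6 CPM to 54.1 CPM in VDD-F1 (median 30.5 CPM) and 13.3 CPM to 28.3 CPM in VDS-F1 (median 16.3 CPM). The groups overlapped, with 3 VDD-F1 mice above the VDS-F1 range and VDD1 below it. The log2-fold change was 0.76 (SE 0.29, adjusted p = 0.223, edgeR).

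Timp1 encodes the inducible inhibitor that is commonly used as a marker of liver scarring. It lies on the X chromosome (20870166 to 20874735, plus strand) inside Syn1, which runs the other way and shares no exon base with it. Its counts in VDD1 to VDD6 were 0, 57, 3, 8, 13 and 7, and in VDS1 to VDS6 they were 1, 4, 0, 0, 0 and 0. It was thus seen in 5 of 6 VDD-F1 and 2 of 6 VDS-F1 libraries, and 57 of the 88 VDD-F1 counts came from VDD2. In the fit with a total count of at least 12, the log2-fold change was 3.83 (adjusted p = 0.129, edgeR), and DESeq2 on the same genes gave 4.02 (adjusted p = 0.0300). With this filter all 10 members were tested, and 8 had an unadjusted p under 0.05 and were higher, against 8.94% of all genes. Timp1 passed this filter only through VDD-F1, with 88 counts there and 5 in VDS-F1, so its place among the 8 and its fold were favoured by the filter. With at most 4 counts in any VDS-F1 library, the size of this fold is imprecise.

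Loxl1 encodes a lysyl oxidase that crosslinks elastin. Its locus is on chromosome 9 (58287738 to 58313186, minus strand). Its level was 2.08 CPM to 21.3 CPM in VDD-F1 (median 10.3 CPM) and 1.03 CPM to 7.40 CPM in VDS-F1 (median 2.65 CPM). VDD2, VDD4, VDD5 and VDD6 exceeded every VDS-F1 mouse, VDD3 was just under VDS1, and VDD1 was among the lowest. It differed by a log2-fold change of 1.77 (SE 0.50, adjusted p = 0.118, edgeR), and DESeq2 gave an adjusted p of 0.0452, or 0.0576 over genes with a total count of at least 12, where it was not called.

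No member separated all 6 VDD-F1 from all 6 VDS-F1 mice, and 0.61% of all genes had every VDD-F1 mouse above every VDS-F1 mouse. The mice kept nearly the same order for most members. The mean z score of the 8 members, which is the mean distance from each gene's average in SD of log2 CPM, was 1.67 in VDD2, 0.72 in VDD4, 0.62 in VDD5 and 0.52 in VDD6. VDS1 at 0.30 was above VDD3 at 0.22. VDD1 at -0.91 stood at the bottom beside VDS3 at -0.97 and VDS4 at -0.87.

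**Figure D2:**
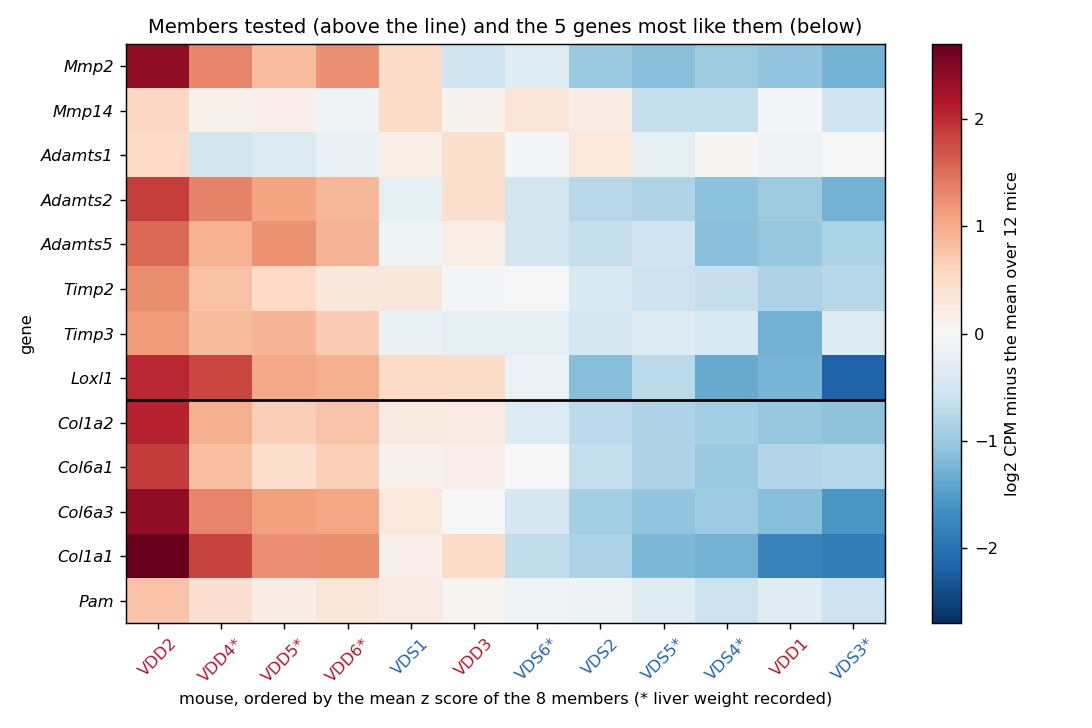
Level of the 8 members tested (above the line) and of the 5 genes most like them (below) in each mouse, as log2 CPM minus the gene's mean over the 12 mice. Columns are ordered by the mean z score of the 8 members, with VDD-F1 names in red, VDS-F1 names in blue and a star for a recorded liver weight. VDD2 is at the left, VDD1 is next to last, and Mmp14 and Adamts1 have the palest rows of the members.

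The genes whose level over the 12 libraries was most like the mean of the members were Col1a2 (Pearson r = 0.990), Col6a1 (0.982), Col6a3 (0.979), Col1a1 (0.978) and Pam (0.978). The first 4 encode chains of collagens I and VI, and Pam encodes an enzyme that amidates secreted peptides. These correlations share the libraries, their depth and the outlying mouse VDD2, and they are given as a description.

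The sets of mice were also taken one at a time. In the 7 mice with a recorded liver weight, 6 of the 8 members rose and were called with edgeR, against 3.06% of all genes called higher. Adamts2 rose by 2.03 on the log2 scale (SE 0.19, adjusted p = 4.98e-05) and Timp3 by 1.17 (SE 0.10, adjusted p = 2.21e-05). Adamts5 rose by 1.81, Mmp2 by 2.06, Loxl1 by 2.29 and Timp2 by 1.01, with adjusted p of at most 0.00472. Mmp14 (0.37) and Adamts1 (-0.27) did not pass. All 3 VDD-F1 mice were above all 4 VDS-F1 mice for these 6 and for Timp1, which had 28 counts over the 3 and 0 over the 4. Over all genes tested that order was met by 12%.

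In the 5 mice without a recorded weight no member passed, at an adjusted or an unadjusted p, beside 0% of all genes called higher and 3.79% with an unadjusted p under 0.05 in either direction, and the log2-fold changes ran from -0.12 for Mmp14 to 1.39 for Adamts2. Here VDD1 was among the lowest and VDD2 the highest mouse for most members, and the intervals were wide. The difference between the sets was tested on its own, as the interaction of diet and set. No member had an unadjusted p under 0.05 in all 12 mice, against 9.01% of all genes. Without VDD2 the diet difference was larger in the mice with a liver weight for Mmp2 by 2.84 on the log2 scale (adjusted p = 0.0162), Timp3 by 1.54 (0.0162) and Adamts5 by 1.79 (0.0479), against 1.24% of all genes. A difference between the sets thus rested on leaving out 1 mouse.

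**Figure D3:**
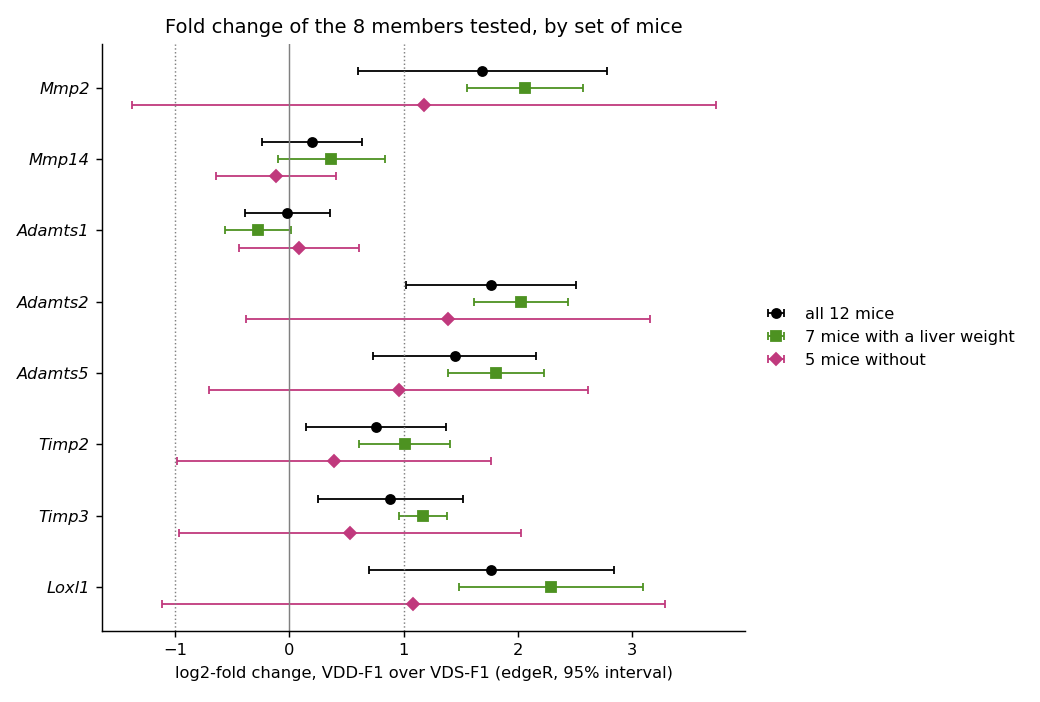
Log2-fold change of VDD-F1 over VDS-F1 for the 8 members tested (edgeR, points with 95% intervals), in all 12 mice (black circles), the 7 with a recorded liver weight (green squares) and the 5 without (pink diamonds). Dotted lines mark a change of 2-fold. The green intervals of Mmp2, Adamts2, Adamts5, Timp2, Timp3 and Loxl1 lie above 0, and every pink interval spans 0.

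Single mice decided the calls. Without VDD1, 5 of the 8 members were called, against 1.7% of all genes called higher, namely Adamts2 (log2-fold change 1.96, adjusted p = 0.00225), Adamts5 (1.64, 0.00534), Timp3 (1.08, 0.0103), Loxl1 (1.98, 0.0235) and Mmp2 (1.90, 0.0370). Without VDD3, 2 were called, against 0.578% of all genes, Adamts2 (adjusted p = 0.0366) and Adamts5 (0.0481). Leaving out any of the other 10 mice called no member, and between 0% and 0.0562% of all genes were called higher in those fits. Without VDD2 all fold changes were lower, and 5 of the 8 members were higher at an unadjusted p under 0.05, against 7.32% of all genes.

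**Figure D4:**
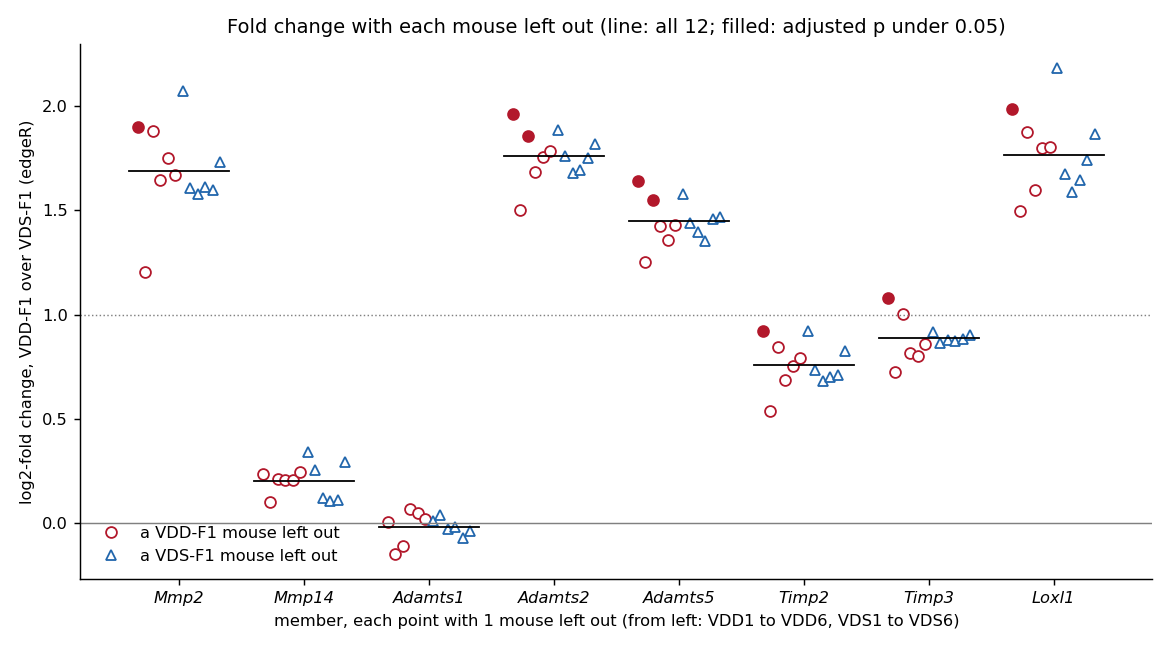
Log2-fold change of the 8 members tested with each mouse left out in turn (edgeR, red circles for VDD-F1 mice, blue triangles for VDS-F1 mice, in label order from left). Lines are the values in all 12 mice, and filled points have an adjusted p under 0.05. Filled points occur only where VDD1 or VDD3 was left out, and the lowest points of Mmp2 and Timp2 are those without VDD2.

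Levels of different members can be set beside each other only per exon length, and then within a mouse. On the TPM scale, where counts are divided by exon length and then scaled to 1000000 per library, Mmp14 was the most abundant member in 8 of the 12 mice and Timp2 in the other 4, and both were among the top 3 in all 12. Mmp14 made up 15.1% to 38.3% of the members' summed TPM in VDD-F1 and 24.9% to 34.2% in VDS-F1. Timp2 kept to 20.7% to 25.3% and 21.4% to 25.4%, so its share hardly differed between mice. Adamts1 took 5.0% to 16.8% in VDD-F1 and 11.1% to 18.3% in VDS-F1. Loxl1 took 4.0% to 13.7% and 2.0% to 7.9%. These are descriptions with no test, and a lower share follows where other members are higher.

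**Figure D5:**
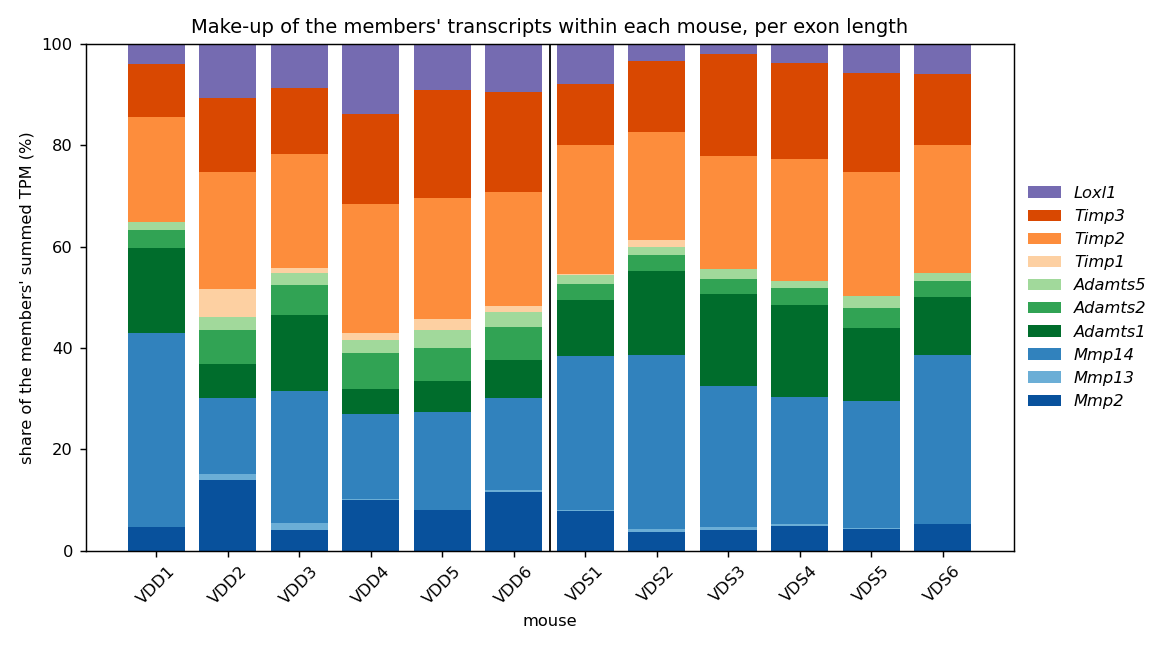
Share of each member in the summed TPM of the 10 members (percent, bars from 0 to 100) within each mouse, with VDD-F1 left and VDS-F1 right of the line. VDD2, VDD4, VDD5 and VDD6 have smaller shares of Mmp14 and Adamts1 than the VDS-F1 mice, and VDD1 has the largest share of Mmp14, 38.3%.

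The other genes of the pathway were taken from lists that held 96 genes beside the members, of which 64 could be tested. Of these, 29 were higher in VDD-F1 at an unadjusted p under 0.05, beside 9.55% of all genes, 1 was lower, and none was called with edgeR. DESeq2 called 11, all higher, beside 1.75% of all genes. In the 7 mice with a liver weight 19 were called, all higher, beside 3.06% of all genes, and in the other 5 none was. Of the 64, Adamts4, Adamts12, Lox, Mmp12, Mmp23 and Plat had a mean count under 12 in VDS-F1 and passed the filter only through VDD-F1, so they had to be higher there. Among the other 58, 23 were higher at that p, DESeq2 called 9, and 14 were called in the 7 mice with a liver weight. In the lists below, a count of higher genes is at an unadjusted p under 0.05 in edgeR. At that p, 9.55% of all 12453 genes tested were higher and 783 genes were lower. The lists were chosen with earlier results of these data known.

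Of 7 further metalloproteinases tested, 3 were higher at an unadjusted p under 0.05, among them Mmp12 and Mmp23, which passed the filter only through VDD-F1. Mmp12, the macrophage elastase, was 3.97 ± 6.54 CPM in VDD-F1 and 0.275 ± 0.286 CPM in VDS-F1 (mean ± SD, n = 6 each), with 17.2 CPM in VDD2. Its log2-fold change was 3.75 (adjusted p = 0.0958) and 2.16 without VDD2. Mmp23 was 1.54 ± 0.95 CPM against 0.422 ± 0.264 CPM (log2-fold change 1.84, adjusted p = 0.103).

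Of 9 further ADAMTS genes tested, 4 were higher at that p, among them Adamts15, an aggrecanase (log2-fold change 1.51, adjusted p = 0.118), and Adamts9, which cuts versican (0.93, adjusted p = 0.135). The others higher at that p, Adamts4 and Adamts12, passed the filter only through VDD-F1. Neither of the other inhibitors tested reached an unadjusted p under 0.05. Reck, a membrane-anchored inhibitor, had a log2-fold change of -0.36 (adjusted p = 0.604). Pzp, a broad protease inhibitor secreted by the liver, had 0.20 (adjusted p = 0.414) at about 6751 ± 716 CPM in VDD-F1 and 5891 ± 599 CPM in VDS-F1.

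All 4 other lysyl oxidases had a higher fitted level, 3 of them at an unadjusted p under 0.05. Lox, among these 3, passed the filter only through VDD-F1. Lox was 2.11 ± 1.66 CPM in VDD-F1 and 0.494 ± 0.252 CPM in VDS-F1 (log2-fold change 2.08, adjusted p = 0.169), and Loxl2 was 4.52 ± 1.74 CPM against 2.60 ± 0.75 CPM (0.79, adjusted p = 0.22).

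Among 8 genes of the plasminogen system 3 were higher at that p, led by the activators Plau (log2-fold change 1.24, adjusted p = 0.137) and Plat (1.82, adjusted p = 0.278). Plat passed the filter only through VDD-F1. Of 4 further genes that process collagen propeptides only Pcolce, which speeds up removal of the carboxy-terminal propeptide, was higher at that p (0.88, adjusted p = 0.0918). Bmp1, the protease it serves, had a log2-fold change of -0.32 (adjusted p = 0.326). Of 10 cathepsins and other proteases, 3 were higher at an unadjusted p under 0.05, among them Ctsl (0.44, adjusted p = 0.132) and Htra1 (1.15, adjusted p = 0.156).

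Of 10 substrates of the members that could be tested, 9 were higher at an unadjusted p under 0.05, beside 9.55% of all genes. None was called with edgeR. Col3a1 was 114 ± 72 CPM in VDD-F1 and 33.2 ± 14.4 CPM in VDS-F1 (log2-fold change 1.78, adjusted p = 0.0855 with edgeR and 0.00755 with DESeq2), and Col1a1 was 72.2 ± 55.8 CPM against 14.9 ± 7.7 CPM (2.27, adjusted p = 0.0883 and 0.00825). Of 11 genes that activate or clear the members, 3 were higher and 1 was lower at that unadjusted p. Thbs2, which takes part in the clearance of MMP2, had a log2-fold change of 1.43 (adjusted p = 0.0905), and Thbs1 had 1.16 (adjusted p = 0.192).

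The summed markers of activated stellate cells, of portal fibroblasts and of cholangiocytes were highest in VDD2, VDD4, VDD5 and VDD6, as were most members, while for stellate cells in general VDD6 lay below VDS1, VDD3 and VDS6. Single markers did not all share that order. Postn was 1.85 CPM in VDD4, 2.73 CPM in VDD5 and 2.33 CPM in VDD6, below the 4.60 CPM to 8.12 CPM of VDS-F1. Acta2 and Tagln were nearly as high in VDS1 as in the highest VDD-F1 mouse, and Thy1 and Entpd2 in VDD4 and VDD6 lay within the range of VDS-F1. Of 7 markers of activated stellate cells or myofibroblasts, 4 were higher at an unadjusted p under 0.05, namely Col1a1, Col1a2, Col3a1 and Lox. At that p, 9.55% of all 12453 genes tested were higher and 783 genes were lower. The 7 markers summed to 60.8 to 560 CPM in VDD-F1 and 51 to 147 CPM in VDS-F1. All 4 of the higher markers are also in the lists above, and Lox passed the filter only through VDD-F1. Portal fibroblast markers summed to 6.69 to 51.9 CPM and 6.80 to 13.5 CPM, with 3 of 5 tested higher and Gli1 at or near 0. General stellate cell markers summed to 327 to 607 CPM and 313 to 422 CPM, with 3 of 9 higher. Cholangiocyte markers summed to 23.9 to 116 CPM and 27.8 to 51.5 CPM, with 3 of 5 tested higher, and mesothelial markers to 4.42 to 23.9 CPM and 2.54 to 13.6 CPM, with 1 of 5 higher. Markers of Kupffer cells or macrophages summed to 136 to 350 CPM and 185 to 346 CPM, with 2 of 8 lower. Those of sinusoidal endothelial cells summed to 228 to 267 CPM and 220 to 316 CPM, with 1 of 7 higher and 2 lower. Hepatocyte markers showed 2 of 7 lower and none higher. Vascular smooth muscle markers summed to 10.8 to 24.4 CPM and 8.69 to 24.7 CPM, with none of 4 tested past that p. Vascular endothelial markers summed to 70.6 to 110 CPM and 70.3 to 97.2 CPM, with 1 of 6 higher. The higher gene was Cd34, which also counts among the higher portal fibroblast markers. Lymphocyte markers stayed at or under 10.2 CPM and neutrophil markers at or under 7.32 CPM. The part of these cells in the members' levels was not tested.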

How the data were processed

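The authors extracted RNA from the left lateral lobe, made ribosomal RNA-depleted libraries and aligned the reads with STAR (version not given in the sources used here) to mm10 with GENCODE annotation. They deposited raw counts per gene for each mouse, with no normalization, in 3 columns by strand. The reverse-strand count was used, which held 92.7% to 95.8% of the stranded counts. Of 52636 gene identifiers, 52489 were matched to GENCODE M21 positions on GRCm38.

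VDD-F1 was compared with VDS-F1 with edgeR 4.0.16 in R 4.3.3 (TMM, quasi-likelihood test in its legacy form, Benjamini-Hochberg adjustment) over the whole table, after genes whose mean count was under 12 were dropped. Calls needed an adjusted p under 0.05 and a log2-fold change past 1. CPM used TMM-scaled library totals, log2 CPM a prior count of 2, and TPM the summed exon length. The fits were tested on simulated data.

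Alternatives were DESeq2 1.42.0, voom in limma 3.58.1, other edgeR forms, size factors and filters. Further ones were the count without strand, the set of mice, a replicate block and leaving out each mouse. The study itself used DESeq2, with the same mean count, adjusted p and fold thresholds. DESeq2 with a total count of at least 12 was chosen after the data had been seen. The members and lists were chosen with earlier results of these data known. Named genes beside the members are the 2 genes of each list with the smallest unadjusted p and the 5 most correlated. Also named are genes that overlap a member, genes that passed the filter only through VDD-F1, and some cell type markers. The sets of mice come from names in a supplementary histology picture, assumed to match the labels. Promoters are from RefSeq (GRCm38.p6). The 3 members Adamts5, Mmp2 and Loxl1 had no promoter entry.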

Additional observations from a re-analysis of the deposited data

Results flagged for a closer look

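A sample far from the others of its diet was found in 3 of the 20 groups of 6 mice checked, where chance marks about 1 in 20. Mmp14 was 54.3 CPM in VDD2, while the other VDD-F1 mice lay between 34.7 CPM and 40.4 CPM. Timp1 was 2.98 CPM in VDD2, while the other VDD-F1 mice lay between 0 and 0.684 CPM. Timp1 was also apart in VDS2 at 0.236 CPM, which is 4 counts, with the other VDS-F1 mice between 0 and 0.0494 CPM. The causes were not tested.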

How the results depend on the processing

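The number of members called, 0 with edgeR in all 12 mice, was 3 with DESeq2 (3 with a total count of at least 12, where Loxl1 was lost at an adjusted p of 0.0576 and Timp1 was added at 0.0300), 4 with voom, 2 with no filter on low counts and 6 in the 7 mice with a liver weight. Over all genes, the share called higher was 1.75% with DESeq2 (1.36% with a total count of at least 12), 1.45% with voom, 0.226% with no filter and 3.06% in those 7 mice. Leaving out 1 mouse gave 0 to 5. For the whole list of 106 pathway genes the number called was 0 with edgeR, 14 with DESeq2 (12 with a total count of at least 12), 14 with voom, 6 with no filter, 25 in the 7 mice with a liver weight and 0 to 18 with 1 mouse left out. In the 5 mice without a liver weight, 0 members and 3 pathway genes had an unadjusted p under 0.05, beside 3.79% of all genes. The members past that p for diet by set went from 0 to between 0 and 6 with 1 mouse left out. The 6 were without VDD2, where 16.7% of all genes passed. The cause of these changes was not tested. The fold change of Adamts1, near 0, turned positive with library totals only (0.0312) and in the 5 mice without a liver weight (0.0829), and ran from -0.152 to 0.0642 with 1 mouse left out, while that of Mmp14 was -0.12 in the 5 mice. The other members kept their direction in every fit in which they were tested. Replicate numbers did not pair the mice: deviations of same-numbered mice correlated between -0.076 and 0.103. With the replicate block, 5 members had an unadjusted p under 0.05, beside 14.4% of all genes in either direction, none was called and the median log2-fold change was 1.02. Counts of Timp1 and Mmp13 are too low for a precise fold.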

Other observations

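Ratios within a mouse, on the TPM scale, are given with no test. The summed TIMP genes were 0.723 to 1.73 times the summed metalloproteinases Mmp2, Mmp13 and Mmp14 in VDD-F1 and 0.950 to 1.49 times in VDS-F1. Mmp2 was 0.122 to 0.924 of Mmp14 in VDD-F1 and 0.109 to 0.261 in VDS-F1, with 4 VDD-F1 mice above that range. Adamts2 was 0.214 to 1.42 of Adamts1 in VDD-F1 and 0.160 to 0.291 in VDS-F1, and it reached or passed the level of Adamts1 in VDD4 and VDD5 and lay just under it in VDD2. Timp3 made up 33.2% to 45.6% of the summed TIMP transcripts in VDD-F1 and 32.2% to 47.4% in VDS-F1, so these ranges overlapped widely.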
